A study of Mus musculus with 28 samples.

Results

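The cytochrome P450, UGT, SULT and glutathione transferase families were followed through the mouse colon in a model of colon cancer driven by inflammation. Members were all genes whose symbol in the authors' table of group comparisons started, in any case, with CYP, UGT or SULT and a digit, or with GSTA, GSTM, GSTP, GSTT, GSTO, GSTK, GSTZ or MGST and a digit. This rule, which used no measured value, took 67 of the 14338 genes that the table names: 34 cytochrome P450 genes, 5 UGT genes, 7 SULT genes and 21 glutathione transferase genes. A gene with several probe sets (20 of the 67 members) was read at the probe set with the highest mean.

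All 28 arrays came from female C57BL/6J mice, 1 tissue RNA from the proximal or the distal colon on each, and the replicates were separate animals. Treated mice received azoxymethane (AOM), a colon carcinogen, once at 10 mg/kg into the peritoneum. After 96 hours their drinking water held 2.5% dextran sulfate sodium (DSS), which damages the lining of the colon, for 5 days and then plain water for 14 days. Early mice went through 2 such DSS cycles and were killed on day 42 (3 proximal and 3 distal arrays), and late mice went through 4 cycles and were killed on day 120 (4 proximal and 6 distal arrays). Untreated mice (6 proximal and 6 distal arrays) received neither agent, and the labels give no age for any group and do not say whether a proximal and a distal sample came from 1 mouse. By the labels, the late distal colon carried dysplasias and intramucosal adenocarcinomas, the early colon carried areas of dysplasia, and the proximal colon was unaffected. Values are log2 expression after robust multi-array average (RMA) normalization, so that 1 unit is a 2-fold difference. Differences were tested with limma across all 14338 genes, and a gene is called, and said to have risen or fallen, at a Benjamini-Hochberg adjusted p under 0.05. In such bulk tissue, fewer cells of a type and less RNA per cell cannot be told apart.

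These families dispose of drugs, plant compounds, bile acids and steroids. Cytochrome P450 enzymes are haem proteins of the endoplasmic reticulum or mitochondria that insert oxygen into a substrate with electrons from a reductase, while other families of the same fold build and break down sterols, steroids, retinoids, vitamin D and fatty acid mediators. The product is then often coupled to a water-soluble group: UGT enzymes add glucuronic acid from UDP-glucuronic acid, SULT enzymes add sulfate from the donor PAPS, and glutathione transferases add glutathione. In the colon they act mainly in the surface epithelium, and AOM itself is activated through oxidation by CYP2E1, for the most part in the liver.

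Symbols are printed as the table gives them. Of the 67 members, 50 carry capital, human-style symbols, 11 a mouse symbol, 1 a mouse-style symbol that RefSeq does not list under that name, and 5 an entry for several genes. The table lists both GSTM3 and Gstm3, which behaved differently below, so a capital symbol in a family with many members can stand for a mouse gene of another number, and only 33 members could be tied to 1 mouse gene. Roles stated for other capital symbols are those of the human gene. The chosen probe set of 7 members is of a type that can also read near relatives, among them CYP2C8, Cyp2c44, CYP7B1 and Gstm3, and their values are uncertain in this respect.

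A check of the region labels came first. The posterior Hox gene HOXD13, a marker of the distal colon, read 11.05 to 12.20 on every distal array but 1 and 2.46 to 4.51 on every proximal array but 2. The library labelled untreated proximal 1 read 11.37 and the library labelled untreated distal 3 read 3.44, and both stood with the other region over 8 posterior Hox genes (means of 8.98 and 6.44). Late proximal 3 lay between the regions at 7.52. Counts between regions are therefore given with and without the first 2 libraries. The early arrays also carry more decimals than all others (50.7% to 50.9% of their values hold over 6 digits, against 0%), and an effect of this difference cannot be told apart from the early state. Pancreatic acinar transcripts lay more than 2 units above the median of all arrays on 6 of them (untreated proximal 1, untreated distal 1, early distal 3 and late distal 2, 3 and 5). A planned limit of 1 unit above the median was passed by 9 arrays, among them all 6 late distal arrays (means of 8.98 to 12.88). Untreated distal arrays other than 1 read 7.60 to 8.32. The part of this signal in the late distal results could not be fully told apart from the late state.

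In the late distal colon most of these enzymes were lower. Of the 67 members, 39 fell, 13 rose and 15 were not called, so 77.6% were called against 48.4% of all genes. The fallers made up 58.2% of the members against 22.5% of all genes, and the risers 19.4% against 26%. The median difference was -0.69 over the members and 0.00 over all genes. By family, 17 of 34 cytochrome P450 genes fell and 9 rose, 3 of 5 UGT genes and 6 of 7 SULT genes fell with none rising, and 13 of 21 glutathione transferase genes fell and 4 rose. With 1 array left out at a time, 47 to 52 members were called, and 45 without the 6 arrays high in acinar transcripts. That last fit kept late distal 1, 4 and 6, which lay over the planned acinar limit as well.

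**Figure D1:**
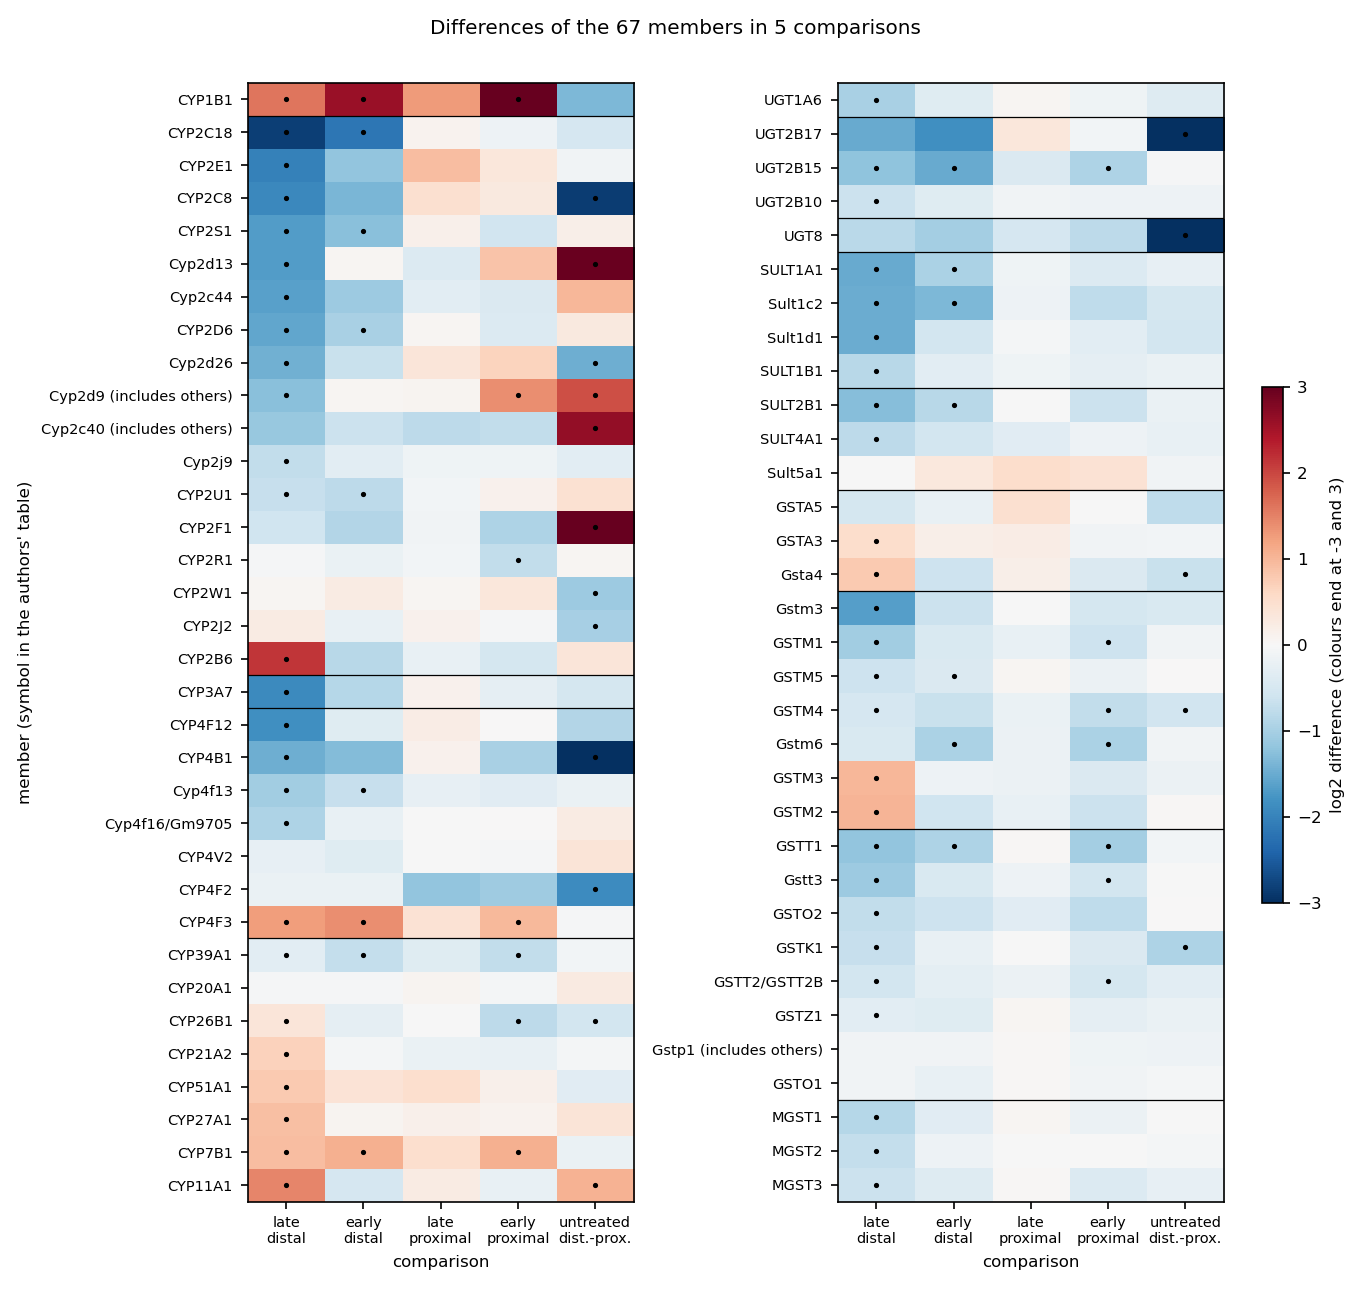
Log2 differences of the 67 members (rows, grouped by family with lines between families) in 5 comparisons (columns: late or early minus untreated colon in each region, and distal minus proximal in untreated colon). Blue is lower and red is higher, dots mark calls, and the late distal column carries 52 dots where the late proximal column carries none.

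The CYP2 family, which oxidises most foreign compounds, held the deepest falls. CYP2C18, of a subfamily that oxidises drugs and arachidonic acid, read 12.38, 12.66 and 13.42 in the untreated distal arrays (lowest, median, highest) and 8.64, 9.50 and 11.51 in the late distal arrays. No late array reached the lowest untreated one, and the difference was -2.83 ± 0.40 (SE; adjusted p = 3.59e-06). CYP2E1, the oxidase of ethanol and of AOM, read 7.03, 8.76 and 9.31 in untreated and 4.96, 6.49 and 7.77 in late distal colon. The groups touched, because untreated distal 2 was the low array of its group, and CYP2E1 fell by 2.03 (SE 0.50, adjusted p = 0.00169). CYP2S1, an oxidase found mainly outside the liver, read 10.79 to 11.32 in untreated and 8.79 to 10.14 in late distal colon, with no overlap and a difference of -1.67 ± 0.21 (adjusted p = 8.62e-07). In all, 11 of 17 CYP2 genes fell and 1 rose, and 9 of the fallers fell by at least 1 unit. CYP2R1, a vitamin D 25-hydroxylase, CYP2W1, CYP2F1, CYP2J2 and Cyp2c40 (includes others) were not called, the last with a reading of 7.46 on the library labelled untreated distal 3 against 11.88 to 12.67 on the other untreated distal arrays.

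CYP3A7 is the only member of CYP3, the family that in humans clears most drugs. Its levels were 10.41, 11.34 and 11.65 in untreated, 9.86, 10.04 and 10.86 in the 3 early and 7.96, 9.21 and 10.37 in late distal colon. All late arrays lay under all untreated ones, and the late difference was -1.92 ± 0.39 (adjusted p = 0.000237). Among CYP4 genes, which hydroxylate fatty acids and eicosanoids, 4 of 7 fell and 1 rose. CYP4F12 read 9.11, 9.55 and 10.51 in untreated and 6.41, 7.96 and 9.14 in late distal colon. Its groups overlapped only at 1 late array, and the difference was -1.83 ± 0.38 (adjusted p = 0.00034). CYP4F3, in humans a hydroxylase of leukotriene B4 in neutrophils, moved the other way, from 5.86 to 6.15 in untreated to 7.01 to 7.58 in late distal colon, a rise of 1.25 ± 0.20 (adjusted p = 2.18e-05).

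The promoters of 3 mouse genes that recur below are shown as the 250 bases before the RefSeq transcription start on GRCm38.p6, 5′ to 3′ on the strand of the gene, because one belongs to a member that rose with treatment and the others to members that fell in the late distal colon. Capitals mark matches, on either strand, to GCGTG, the core bound by the aryl hydrocarbon receptor (read as CACGC on the other strand), TATAAA, the TATA box, or TTTATG, a site of the intestinal factor CDX2, and none of the printed matches overlap. Cyp1b1 lies at chr17:79715062-79715311 on the minus strand, Cyp2e1 at chr7:140763569-140763818 on the plus strand and Sult1d1 at chr5:87569007-87569256 on the minus strand.
Cyp1b1: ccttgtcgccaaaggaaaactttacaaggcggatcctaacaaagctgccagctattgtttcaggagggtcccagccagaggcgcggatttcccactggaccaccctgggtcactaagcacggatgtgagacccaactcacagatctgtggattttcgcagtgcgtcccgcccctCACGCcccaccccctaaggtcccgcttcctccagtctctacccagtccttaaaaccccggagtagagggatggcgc
Cyp2e1: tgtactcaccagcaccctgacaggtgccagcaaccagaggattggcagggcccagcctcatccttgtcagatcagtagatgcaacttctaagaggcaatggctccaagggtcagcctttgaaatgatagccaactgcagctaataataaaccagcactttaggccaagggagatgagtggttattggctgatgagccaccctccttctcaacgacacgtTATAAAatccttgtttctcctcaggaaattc
Sult1d1: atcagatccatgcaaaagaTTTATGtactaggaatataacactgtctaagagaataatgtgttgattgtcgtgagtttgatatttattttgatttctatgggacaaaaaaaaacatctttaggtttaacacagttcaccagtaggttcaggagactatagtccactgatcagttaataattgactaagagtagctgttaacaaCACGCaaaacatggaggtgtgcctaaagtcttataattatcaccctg
The Cyp1b1 window holds 1 GCGTG core, the Cyp2e1 window 1 TATA box close to the start, and the Sult1d1 window 1 GCGTG core and, farther out, 1 TTTATG. Among 27 members with a promoter in the RefSeq table, 6 held GCGTG, 4 TATAAA, 2 TTTATG, 1 the antioxidant response core TGACNNNGC and none the HNF4A site CAAAGTCCA. Over all 27025 promoters of the same length these motifs were in 28.2%, 13%, 11.1%, 10.1% and 0.381%. A match is a run of letters and was not tested as a binding site.

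Cytochrome P450 genes of the sterol, steroid and retinoid families went against the rest. Of the 8 members of families CYP5 to CYP51, 6 rose in the late distal colon, CYP39A1 fell by 0.32 and CYP20A1, whose substrate is not known, was not called. CYP11A1, which cuts the side chain of cholesterol to make pregnenolone, read 5.80, 7.17 and 7.63 in untreated, 6.27, 6.49 and 6.65 in early and 7.69, 8.50 and 9.05 in late distal colon. Every late array lay above every untreated and early array, and the differences were 1.47 ± 0.28 against untreated (adjusted p = 0.000149) and 1.98 ± 0.35 against early colon (adjusted p = 0.000217). CYP7B1, a hydroxylase of oxysterols, read 6.39, 6.90 and 7.33 in untreated and 7.50, 7.75 and 8.20 in late distal colon, again without overlap (0.92 ± 0.26, adjusted p = 0.00592), a call lost without the 6 arrays high in acinar transcripts. Of the others, CYP27A1, which oxidises the sterol side chain on the way to bile acids, rose by 0.89, CYP51A1, a demethylase of cholesterol synthesis, by 0.79, CYP21A2, the steroid 21-hydroxylase, by 0.69 and CYP26B1, which breaks down retinoic acid, by 0.37. CYP26B1 lost its call with arrays centred on their median and without any 1 of 7 arrays (untreated distal 1, 2, 4 and 6 and late distal 1, 3 and 5), and CYP39A1 without any 1 of 6 (untreated distal 3, 4 and 6 and late distal 2, 3 and 4).

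CYP2B6 had the largest rise among the members in the late distal colon, from levels near the low end of the arrays. This gene is known in humans as a drug oxidase induced through the receptor CAR. Its levels were 4.31, 4.68 and 5.74 in untreated, 3.58, 4.09 and 4.35 in early and 5.63, 6.95 and 8.16 in late distal colon. Only late distal 2 read below the highest untreated array, untreated distal 6, and no late array reached into the early range. The rise was 2.15 ± 0.30 against untreated (adjusted p = 3.06e-06) and 2.99 ± 0.37 against early colon (adjusted p = 2.04e-06). In the late proximal colon it read 3.63, 4.28, 4.31 and 4.85.

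Glucuronidation and sulfation genes moved only downward where they were called in the late distal colon. UGT1A6, which conjugates small phenols, was among the most strongly read members at 12.65, 12.77 and 13.39 in untreated distal colon. It read 11.59, 11.87 and 12.20 in late distal colon, below every untreated array, a fall of 0.98 (SE 0.15, adjusted p = 1.1e-05). The probe set of UGT1A6 is of a type that can read several transcripts of a gene, so the values may not be those of UGT1A6 alone. UGT2B15, in humans a steroid and drug conjugator, read 9.43 to 9.93 in untreated and 8.09 to 8.96 in late distal colon (-1.20 ± 0.20, adjusted p = 3.67e-05), and UGT2B10 fell by 0.64. The 2 probe sets of UGT2B15 correlated at 0.58 over all arrays, the lowest such value among the members. The UGT2B15 values given are those of the set with the higher mean. UGT2B17 and UGT8 were not called there, and both were low in the untreated distal colon, outside array 3.

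Of the SULT1 enzymes, which sulfate phenols, catecholamines and related compounds, all 4 members fell. SULT1A1 read 12.73, 12.96 and 13.26 in untreated and 10.95, 11.40 and 12.01 in late distal colon (-1.52 ± 0.19, adjusted p = 4.62e-07). Sult1d1, whose promoter is printed above, read 11.73, 12.11 and 12.92 in untreated and 10.00, 10.79 and 11.27 in late distal colon (-1.49 ± 0.26, adjusted p = 5.17e-05). Neither gene had a late array within the untreated range, whereas Sult1c2 did (10.24 to 11.28 against 8.66 to 10.33), with a difference of -1.50 ± 0.30 (adjusted p = 0.000209). SULT2B1, which sulfates cholesterol, fell by 1.29 with no overlap (9.15 to 10.24 against 7.97 to 8.69), and SULT4A1, known from brain, fell by 0.78. Sult5a1 was not called.

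The glutathione transferases split within families. Of 7 mu-class (GSTM) genes 4 fell and 2 rose, of 3 alpha-class (GSTA) genes 2 rose, of 8 genes in the remaining soluble classes 6 fell, and all 3 microsomal genes fell. Gstm3 read 11.71, 11.95 and 12.55 in untreated, 11.03, 11.24 and 11.80 in early and 9.92, 10.23 and 11.03 in late distal colon (-1.65 ± 0.19, adjusted p = 1.28e-07). GSTM3, a different gene of the same class, went from 10.95, 11.47 and 11.57 in untreated to 11.94, 12.41 and 12.67 in late distal colon (0.98 ± 0.13, adjusted p = 1.09e-06). The late and untreated arrays did not overlap for either gene, and the directions were opposite. GSTM2 rose by 1.02 ± 0.27 (adjusted p = 0.00305), with late arrays from 8.04 to 10.39 reaching into the untreated range of 7.62 to 8.79.

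Gsta4, which clears 4-hydroxynonenal, a product of lipid peroxidation, rose in the late distal colon by 0.79 ± 0.20 (adjusted p = 0.00189) and GSTA3 by 0.53, the latter losing its call with arrays centred on their median. The early distal arrays of Gsta4 (10.22, 11.05 and 10.40) lay under all late ones (11.21 to 12.56), a difference of 1.42 ± 0.24 (adjusted p = 0.000155). GSTT1, a theta-class enzyme of small halogenated compounds, read 9.29, 9.88 and 10.14 in untreated and 8.08, 8.46 and 9.18 in late distal colon (-1.19 ± 0.16, adjusted p = 2.38e-06). The microsomal MGST2, which can make leukotriene C4, read 11.78 to 12.19 in untreated, 11.55 to 12.15 in early and 11.04 to 11.41 in late distal colon. No late MGST2 array reached the other groups, and the fall against untreated was 0.72 (SE 0.10, adjusted p = 2.69e-06). GSTO1 and Gstp1 (includes others), both read above 12 on average in every group, were not called.

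**Figure D2:**
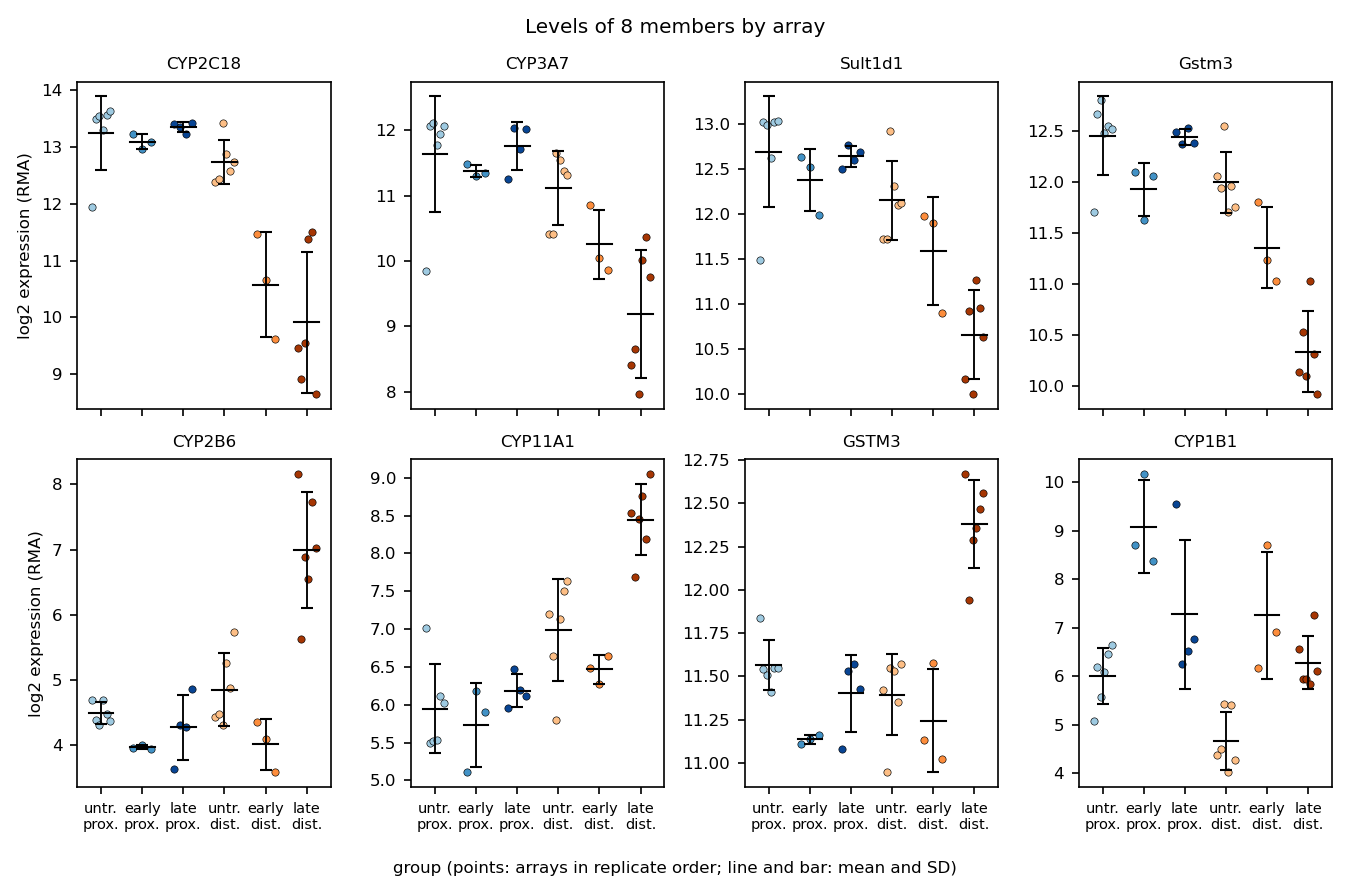
Levels of 8 members on each array (points, in replicate order within the 6 groups on the x axis) as log2 expression after RMA, with the group mean and SD as line and bar. CYP2C18, CYP3A7, Sult1d1 and Gstm3 are lower in late distal colon, CYP2B6, CYP11A1 and GSTM3 are higher there, and CYP1B1 is highest in early proximal colon (8.38 to 10.17).

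CYP1B1 was called higher in both early regions and in the late distal colon, as were, in the same groups, CYP4F3 and CYP7B1. This oxidase of polycyclic hydrocarbons and oestrogens is a textbook target of the aryl hydrocarbon receptor. The distal levels were 4.02, 4.43 and 5.43 in untreated, 6.16, 8.71 and 6.91 in early and 5.84, 6.02 and 7.26 in late colon. The proximal levels were 5.08, 6.14 and 6.64 in untreated, 8.70, 10.17 and 8.38 in early and 9.56, 6.26, 6.52 and 6.77 in late colon. Every early array lay above every untreated array of its region, and among late proximal arrays only the first lay clear of the untreated range by over 1 unit. The rises were 2.59 ± 0.58 in early distal (adjusted p = 0.0038), 3.08 ± 0.58 in early proximal (adjusted p = 0.00189) and 1.61 ± 0.48 in late distal colon (adjusted p = 0.00724). In late proximal colon the difference of 1.28 ± 0.53 was not called (adjusted p = 0.452). The early calls were lost without early distal 2 and without early proximal 2, the highest array of each group. The late distal call was lost without the 6 arrays high in acinar transcripts. Leukocyte markers also rose on these arrays as given below.

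The early distal colon had fewer calls. Of the 67 members 3 rose and 13 fell (23.9% called, against 11.3% of all genes, of which 7.11% rose and 4.22% fell), with a median of -0.44 over the members and -0.06 over all genes. CYP4F3 read 6.64, 7.72 and 7.80 against 5.86 to 6.15 in untreated distal colon, with every early array above every untreated one (1.39 ± 0.25, adjusted p = 0.000521). CYP7B1 (1.06 ± 0.32, adjusted p = 0.0322) and CYP1B1 were the other members that rose. CYP2C18 fell furthest, with early arrays at 11.46, 10.65 and 9.62, all under the lowest untreated value of 12.38 (-2.16 ± 0.49, adjusted p = 0.00411). UGT2B15 read 9.09, 7.91 and 7.44, under every untreated array, and fell by 1.50 (SE 0.25, adjusted p = 0.000289), and 3 SULT genes and 3 glutathione transferase genes fell. The count rested on 2 of the 3 early distal arrays: it was 5 without early distal 3, the array high in acinar transcripts, 11 without early distal 2 and 21 without early distal 1. Without the 6 arrays high in acinar transcripts, early distal 3 among them, it was 3, and CYP1B1, CYP4F3, CYP7B1 and CYP2S1 lost their early distal calls. CYP7B1 lost its early distal call without any 1 of 4 arrays (untreated distal 1 and 2, early distal 2 and 3), and CYP2C18 without early distal 3.

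Between the early and the late distal colon 8 members rose and 12 fell (29.9%, against 24% of all genes, 15.4% up and 8.67% down). The rises were led by CYP2B6, CYP11A1, GSTM2 (1.61 ± 0.33, adjusted p = 0.00108), Gsta4 and GSTM3 (1.14 ± 0.16, adjusted p = 9.6e-06). Falls were smaller, from 0.43 for Cyp2j9 to 1.47 for CYP4F12 (SE 0.47, adjusted p = 0.0242). CYP1B1 and UGT2B15, called in the early distal colon, were not called between the stages. The count was 11 without early distal 1 and 13 without late distal 1.

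In the early proximal colon, which the labels describe as unaffected, 4 members rose and 10 fell (20.9%, against 7.72% of all genes, 5.07% up and 2.65% down). Macrophage and neutrophil markers rose there for 7 of 7, with a mean of 9.41 to 10.71 against 6.64 to 7.22 in untreated proximal colon. Leukocyte markers rose for 7 of 12 (9.32 to 10.58 against 8.49 to 8.84), and the part of these cells in the enzyme results was not tested. CYP1B1, CYP4F3 (0.97 ± 0.25, adjusted p = 0.0171), CYP7B1 and Cyp2d9 (includes others) rose, and CYP39A1, GSTT1, Gstm6, UGT2B15, CYP26B1, GSTM4, CYP2R1, GSTM1, Gstt3 and GSTT2/GSTT2B fell. GSTT1 read 9.67, 9.87 and 9.95 in untreated and 8.74, 8.67 and 9.04 in early proximal colon, clear of all untreated arrays (-1.02 ± 0.20, adjusted p = 0.00245). In late proximal colon GSTT1 read 9.75, 9.85, 9.91 and 9.93, within the untreated range. CYP26B1 read 5.71, 6.22 and 6.47 in untreated and 5.33, 5.56 and 5.17 in early proximal colon, a fall of 0.78 (SE 0.18, adjusted p = 0.0104), and Gstm6 fell by 0.96. Both early regions called CYP1B1, CYP4F3, CYP7B1, UGT2B15, GSTT1, Gstm6 and CYP39A1 in the same direction. Calls were fragile in early proximal colon: leaving out 1 array could give 3 (early proximal 2), 5 (early proximal 3), 7 (early proximal 1, untreated proximal 5 or 6) or 8 members (untreated proximal 2 or 3). CYP7B1 and Cyp2d9 (includes others) lost their calls there without any 1 of 17 and of 21 arrays. For Cyp2d9 (includes others) the library labelled untreated proximal 1 read 11.18. The other untreated proximal arrays read 8.76 to 9.71, under all early proximal ones (10.65 to 11.07). Without the libraries labelled untreated proximal 1 and untreated distal 3 the counts rose: 4 cytochrome P450 genes were higher and 6 lower. Also lower were 2 UGT genes, 1 SULT gene and 9 glutathione transferase genes. The difference between the early responses of the regions was called for none of the 67 members and no gene (smallest adjusted p of 0.999 among members and 0.943 among all genes, limma). Of the 67 members, 3 passed an unadjusted p of 0.05, against 3.58% of all genes. With array weights 5 members were called, all lower in the distal colon.

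The late proximal colon had no member called by limma, against 0.0628% of all genes (0.0558% higher and 0.00697% lower). At an unadjusted p under 0.05 there were 5 members, and the smallest adjusted p was 0.237, for CYP4F2. The median difference was -0.01 over the members. Weighting the arrays gave 4 calls, and leaving out the library labelled untreated proximal 1 gave 1. With the library labelled untreated distal 3 left out as well, 1 cytochrome P450 gene and 1 UGT gene were called lower. CYP4F2 read 6.37 to 6.99 in untreated proximal arrays 2 to 6 and 4.61 to 5.47 in late proximal colon. UGT8 read 9.31 to 10.00 and 8.04 to 8.17 in the same groups. The library labelled untreated proximal 1 read 4.02 and 3.17 for these genes.

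The late responses of the regions were compared directly by their difference, distal minus proximal. It was called for 28 members (41.8%, against 19.3% of all genes, 8.46% lower and 10.9% higher), lower in the distal colon for 23 and higher for 5. CYP2E1 showed the largest gap, -2.95 ± 0.75 (adjusted p = 0.00729), with late proximal arrays at 9.36, 9.76, 8.76 and 10.48 above every late distal array. CYP2C18 followed at -2.94 ± 0.60 (adjusted p = 0.0014), and its 4 late proximal arrays kept to 13.23 to 13.42. The mean of the adipocyte markers listed below was also higher on every late proximal array than on every late distal array. Its part in the CYP2E1 gap was not tested. The 5 members with a higher response in the distal colon were CYP2B6 (2.36 ± 0.45, adjusted p = 0.000747), GSTM2, CYP11A1, GSTM3 and CYP21A2. For CYP1B1, CYP7B1 and CYP4F3 the difference was not called. Without the libraries labelled untreated proximal 1 and untreated distal 3, 36 members were called, 28 lower and 8 higher, and the gaps were -3.0 for CYP2E1, -2.54 for CYP2C18 and 2.21 for CYP2B6. The CYP11A1 call was lost in many settings, among them without the libraries labelled untreated proximal 1 and untreated distal 3 (0.78), and the GSTM2 call without any 1 of untreated distal 2, late proximal 1 and late distal 1 and 6.

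**Figure D3:**
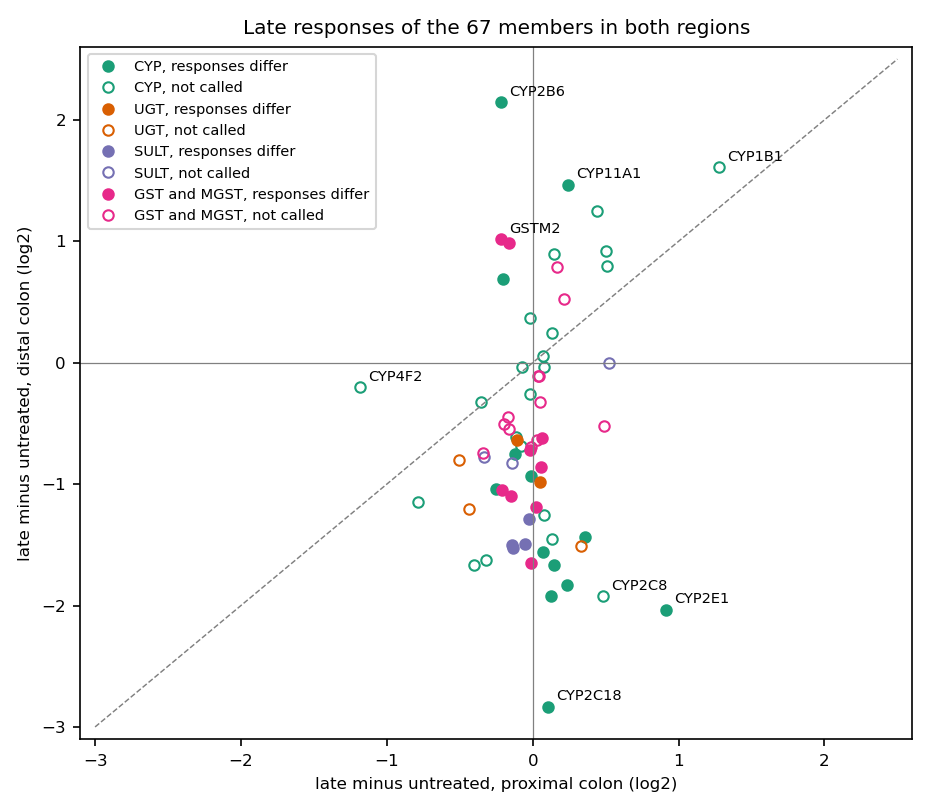
Late minus untreated difference (log2) of each of the 67 members in proximal (x axis) and distal colon (y axis), coloured by family. Filled points are the 28 members whose late responses differ between the regions, the dashed line marks equal responses, and most points lie below 0 on the y axis and near 0 on the x axis.

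Several members also marked the region in untreated colon. In distal against proximal tissue 5 members were higher and 12 lower (25.4% called, against 9.86% of all genes, 4.3% higher and 5.57% lower). UGT2B17, in humans a conjugator of testosterone, read 11.02 to 11.58 in proximal arrays 2 to 6 and 3.31 to 6.90 in distal arrays other than 3. The library labelled untreated proximal 1 read 6.62 and that labelled untreated distal 3 read 11.32, each within the range of the other region. The difference was -4.78 ± 0.97 with them (adjusted p = 0.00537) and -6.67 without them (adjusted p = 7.94e-10). UGT8, which adds galactose to ceramide in the making of myelin lipids, behaved alike, at 9.31 to 10.00 in proximal arrays 2 to 6, 2.75 to 4.01 in distal arrays other than 3, and 3.17 and 8.42 in those 2 libraries. Its difference was -4.23 ± 0.89 with them and -6.12 without them. Distal UGT2B17 and UGT8, and proximal CYP2F1 below, lay mostly near or under 4.10, the median level of probe sets outside the authors' table, so these differences set a reading against the low end of the arrays and their exact size is not a measured fold.

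Both regions had cytochrome P450 genes of their own. Higher in proximal colon were CYP4B1, which in several species activates lung toxicants (10.79 to 11.62 in proximal arrays 2 to 6 against 6.57 to 7.15 in distal arrays other than 3), and CYP2C8 (11.91 to 12.29 against 7.08 to 9.05). They differed by -3.11 ± 0.59 and -2.86 ± 0.68 with all arrays and by -4.29 and -4.18 without the 2 libraries. Higher in distal colon were CYP2F1, known in humans from lung (7.83 to 9.55 against 2.64 to 3.72), Cyp2c40 (includes others) (11.88 to 12.67 against 7.62 to 8.87), Cyp2d13 (8.06 to 8.94 against 3.84 to 4.99) and Cyp2d9 (includes others) (11.32 to 11.76 against 8.76 to 9.71). Their differences were 3.93 ± 0.92, 2.65 ± 0.70, 2.97 ± 0.59 and 1.92 ± 0.36 with all arrays, and 5.72, 4.01, 4.04 and 2.49 without the 2 libraries. For each of these 6 genes both doubtful libraries read nearer to the region opposite to their label, and without them 28 members were called in place of 17. Untreated arrays 1 to 3 alone, which hold both libraries, gave no call, and neither did a fit of the 2 untreated groups alone with all 12 arrays.

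**Figure D4:**
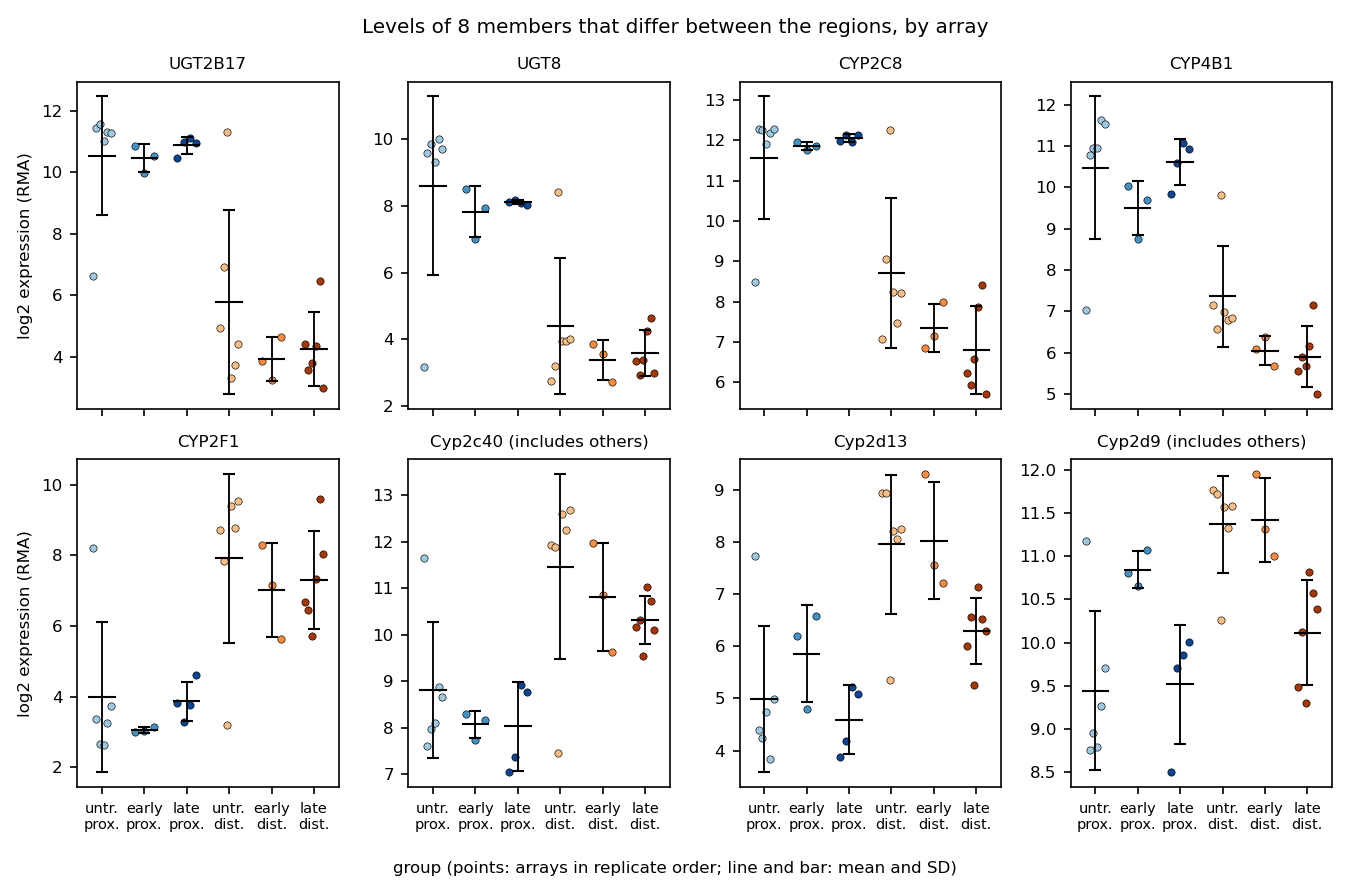
Levels of 8 members that differ between the regions, on each array (points, in replicate order) as log2 expression after RMA, with the group mean and SD as line and bar. The first untreated proximal point and the third untreated distal point lie with the other region for the genes UGT2B17, UGT8, CYP4B1, CYP2F1 and Cyp2c40 (includes others).

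The regional pattern was kept in part in the late colon, where 40 members were lower and 10 higher in distal tissue (74.6% called, against 36.8% of all genes, 17.8% lower and 19.1% higher). Without the 2 libraries 51 members were called. UGT2B17 differed by -6.62 ± 1.08 (adjusted p = 3.49e-05), with 10.46, 10.98, 11.10 and 10.95 in late proximal and 2.98 to 6.45 in late distal colon. All 5 UGT and all 7 SULT genes were lower in late distal than in late proximal colon, while in untreated colon 2 UGT genes and no SULT gene were called with all arrays. Without the libraries labelled untreated proximal 1 and untreated distal 3, 3 UGT genes and 1 SULT gene were lower in the untreated distal colon, UGT1A6 (-0.62 ± 0.12, adjusted p = 0.000438) and Sult1d1 (-0.94 ± 0.22, adjusted p = 0.00206) among them. Of the genes high in the untreated distal colon, 2 fell there late: Cyp2d13 by 1.66 (SE 0.59, adjusted p = 0.0217) and Cyp2d9 (includes others) by 1.25 (SE 0.36, adjusted p = 0.00569). Without the 2 libraries Cyp2c40 (includes others) was called lower as well (-1.95 ± 0.36, adjusted p = 0.000121), with late distal arrays at 9.55 to 11.03 under all 5 remaining untreated ones. Cyp2d13 lost its late call without any 1 of untreated distal 1, untreated distal 2 and late distal 3. CYP11A1, also called higher in untreated distal than proximal colon (medians of 7.17 and 5.78), went the other way and rose late. Its call between the untreated regions was lost without any 1 of 6 arrays. CYP2C8 and CYP4B1, low in the untreated distal colon by comparison, were called lower still (-1.92 and -1.46), but both differences came to -1.22 and -0.96 without the library labelled untreated distal 3 and lost the call. With untreated proximal 1 left out as well, both were called again, CYP4B1 at an adjusted p of 0.00861. CYP2C8 also lost it without late distal 6, and CYP4B1 without any 1 of untreated distal 1 and 4 and late distal 1, 2, 3, 4 and 6.

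Genes that act with these enzymes were described by counts from fixed lists, chosen with earlier results known. Of 15 measured receptors and partners that sense foreign compounds, bile acids and lipids, 12 fell and 1 rose in the late distal colon, with a list median of -0.82 against 0.00 over all genes. Over all genes 22.5% fell and 26% rose there. The pregnane X receptor NR1I2 fell by 0.89, CAR (NR1I3) by 1.27, the vitamin D receptor VDR by 1.20, PPARA by 1.60 and HNF4A, a driver of epithelial gene expression, by 0.82. The aryl hydrocarbon receptor AHR rose by 0.45 ± 0.12 (adjusted p = 0.0026) and its repressor AHRR fell by 1.25 (SE 0.23, adjusted p = 8.8e-05). In the early distal colon PPARA and VDR of these 15 were called, both lower, where 11.3% of all genes were called and 4.22% fell. Of 10 genes that supply the sugar and sulfate donors, 9 fell and 1 rose late (list median -0.56): UGDH, which makes UDP-glucuronic acid, fell by 1.04, the sulfate carrier SLC26A2 by 1.38, and PAPSS1 and PAPSS2, which make PAPS, by 0.62 and 0.66, while the PAPS carrier SLC35B2 rose by 0.66.

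Of 10 transporters of conjugates and drugs, 5 fell and 4 rose in the late distal colon (list median -0.30), where 22.5% of all genes fell and 26% rose. ABCG2 fell by 1.52 and ABCC3 by 0.93, whereas ABCC2 rose by 2.74 ± 0.26 (adjusted p = 1.2e-08) and Abcb1b, a multidrug exporter, by 1.46. Among 10 genes of electron and haem supply only HMOX1, which breaks down haem, was called (2.39 ± 0.35, adjusted p = 6.2e-06), 10% of the list. In the list of NRF2 targets and partners 3 of 12 rose and 1 fell (33.3% called, under the 48.4% of all genes): the cystine carrier SLC7A11 rose by 2.03 while the quinone reductase NQO1 fell by 0.80. In the glutathione list 5 of 11 rose (45.5%, against 26% of all genes), with CHAC1 at 1.14 and GPX3 at 0.99, and 2 fell. Of 31 other oxidising, hydrolysing and conjugating enzymes 19 fell and 4 rose (list median -0.78), among which were the monoamine oxidase MAOB (-2.06), the carboxylesterase Ces1e (-2.23), ALDH1A3, which makes retinoic acid (3.69), and the lysosomal glucuronidase GUSB (1.38).

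**Figure D5:**
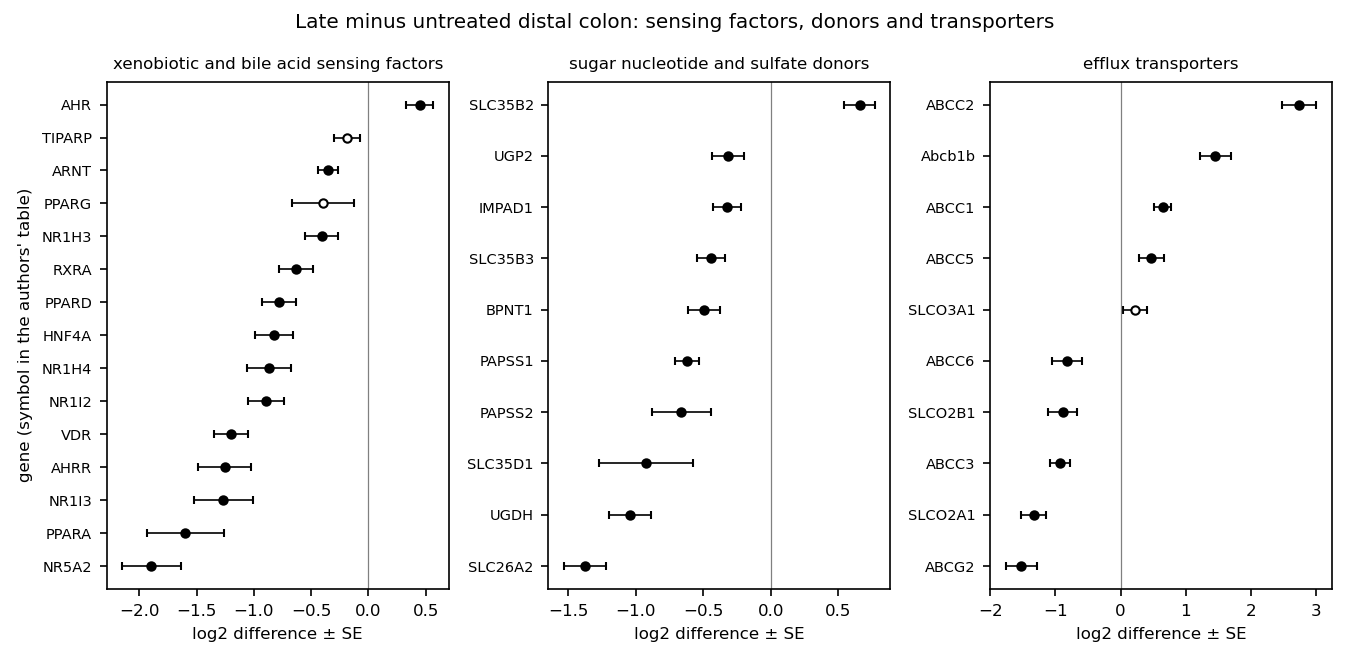
Late minus untreated differences in distal colon (log2, bars are the SE) for the measured genes of 3 lists: sensing factors, donor supply and transporters. Filled points passed the adjusted p of 0.05: 13 of 15 sensing factors, 10 of 10 donor genes and 9 of 10 transporters.

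Cell type markers changed in the same comparisons. Over all genes 22.5% fell and 26% rose in the late distal colon, and 4.22% fell and 7.11% rose in the early distal colon. Of 15 measured markers of absorptive colonocytes 12 fell and none rose in the late distal colon, and their mean level was 11.96 to 12.32 in untreated, 11.72 to 12.17 in early and 10.62 to 11.74 in late distal colon. The general epithelial list fell less: 4 of 7 measured markers fell, 1 rose, and the mean level went from 11.71 to 12.18 to 11.44 to 11.81. Within the late distal group, arrays 4 and 5 had the highest colonocyte means (11.74 and 11.40) and also the highest CYP2C18 (11.38 and 11.51), CYP3A7 (10.02 and 10.37), CYP2S1 (9.90 and 10.14) and Sult1c2 (10.33 and 10.18). They were the 2 highest late distal arrays for 23 of the 39 members that fell, but not for the other 16, such as SULT1A1, highest on array 2 (12.01), and CYP2E1, which read 7.62 on array 2 and 6.51 on array 4. The share of all genes with this order was not computed, so the count cannot be read as particular to the members. The general epithelial list was highest on arrays 4 and 2 (11.81 and 11.80) and read 11.67 on array 5. Leukocyte markers rose for 12 of 12 in the early and 11 of 12 in the late distal colon, with means of 8.16 to 8.53 in untreated, 9.32 to 10.73 in early and 9.56 to 10.09 in late arrays. Their highest proximal mean, 11.13, was on late proximal 1, the late proximal array with the highest CYP1B1, and among early arrays the second of each region was the highest in both. Elsewhere the orders parted: early distal 3 read 10.70 for the leukocyte list, next to 10.73 on early distal 2, but 6.91 for CYP1B1 against 8.71. In the late distal group the array with the highest CYP1B1 (array 5, 7.26) had the lowest leukocyte mean (9.56). Macrophage and neutrophil markers rose for 7 of 7 in the early and in the late distal colon (means of 6.35 to 7.67 in untreated, 9.21 to 10.62 in early and 9.99 to 10.43 in late arrays). Fibroblast markers rose for 8 of 12 in the late distal colon, while smooth muscle markers fell for 7 of 8 and adipocyte markers for 6 of 8. The adipocyte mean was 8.08 to 9.76 in untreated distal, 6.70 to 8.65 in late distal and 9.60 to 10.87 in late proximal colon. In late distal colon it was highest on arrays 5 and 2 (8.65 and 8.22) and lowest on array 6, as was CYP2E1 (7.77, 7.62 and 4.96). In untreated distal colon array 5 had the lowest adipocyte mean but the highest CYP2E1 (9.31). Of 7 measured hepatocyte markers 3 rose late (ALB by 4.56, HP by 4.49 and F2 by 1.30), and ALB read 8.98 to 11.41 in the late distal arrays against at most 6.62 elsewhere, while the other 4 did not rise. The part of these cell types in the enzyme results was not tested.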

How the data were processed

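RNA of proximal and distal colon was measured on 28 Affymetrix mouse arrays with 45101 probe sets. As deposited, each value is a log2 level from RMA, which the submitters' processing notes name together with Partek 6.5. Per the labels' protocols, RNA was amplified with either of 2 kits, and which array had which kit is not given in the sources used here. The authors' deposited table pairs probe sets with symbols and lists fold changes, which the authors wrote as signed scores of untreated over treated colon, and p-values of their ANOVA. It was used for names and, as an alternative, for its step-up adjusted p. Control probe sets and probe sets without a symbol were left out.

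Each gene was read at its probe set of highest mean over all arrays. A model of 6 group means was fitted over 14338 genes with limma 3.58.1 in R 4.3.3 (22 residual and 3.75 prior degrees of freedom), with Benjamini-Hochberg adjustment over all genes, an adjusted p of 0.05 and no filter on level. The fit was tested on simulated data. Precision is limited by the number of arrays. Values by array are given for the 4 largest called rises and falls of each comparison, or the member of smallest p in a family with none of these. SULT1A1, other members and list genes were named in addition for their role. The members and lists were chosen with earlier results of these data known. Promoters came from RefSeq on GRCm38.p6 (250 bases before the start). Alternatives covered the probe set, normalization, filters, weights, prior, samples in the fit, a replicate factor or block, doubtful arrays and each array in turn.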

Additional observations from a re-analysis of the deposited data

Results flagged for a closer look

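Among the 31 members with values by array, 124 groups of 4 or 6 arrays were checked for 1 array that stands apart from the rest by more than Dixon's critical value, and 29 did. The groups reuse the same arrays and most of these members were chosen for large differences, so the count has no chance rate to be set against. The library labelled untreated proximal 1 stood apart in CYP2C18 (11.95), CYP2C8 (8.49), CYP2F1 (8.22), CYP3A7 (9.85), CYP4B1 (7.03), CYP4F12 (9.18), Cyp2c40 (includes others) (11.64), Cyp2d13 (7.74), GSTM3 (11.84), Gstm3 (11.71), Sult1d1 (11.49), UGT1A6 (12.58), UGT2B17 (6.62) and UGT8 (3.17). The library labelled untreated distal 3 stood apart in CYP2F1 (3.20), CYP4B1 (9.82), Cyp2c40 (includes others) (7.46), Cyp2d13 (5.35), Cyp2d9 (includes others) (10.26), UGT1A6 (13.39) and UGT8 (8.42). Late proximal 1 stood apart in CYP1B1 (9.56), CYP2S1 (10.54), GSTM2 (7.49) and Sult1c2 (10.42). The other such arrays were late distal 5 in CYP26B1 (6.5), untreated distal 2 in CYP2E1 (7.03) and GSTM3 (10.95) and untreated distal 4 in CYP26B1 (5.09).

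The late response differed between the regions, by the interaction term of the limma model, for 28 members. Distal minus proximal, the log2 difference of the responses was below 0 for CYP2E1 (-2.95), CYP2C18 (-2.94), CYP4F12 (-2.06), CYP3A7 (-2.04), CYP2S1 (-1.82), Cyp2d26 (-1.79), Gstm3 (-1.64), CYP2D6 (-1.63), Sult1d1 (-1.44), SULT1A1 (-1.39), Sult1c2 (-1.36), SULT2B1 (-1.26), GSTT1 (-1.21), UGT1A6 (-1.03), Gstt3 (-0.95), Cyp4f16/Gm9705 (-0.92), MGST1 (-0.91), GSTM1 (-0.83), Cyp4f13 (-0.79), MGST2 (-0.70), GSTM5 (-0.68), Cyp2j9 (-0.63) and UGT2B10 (-0.53). It was above 0 for CYP21A2 (0.89), GSTM3 (1.15), CYP11A1 (1.23), GSTM2 (1.24) and CYP2B6 (2.36). The number of samples behind each is 6 untreated and 6 late distal arrays against 6 untreated and 4 late proximal arrays.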

How the results depend on the processing

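No direction turned under any alternative. Of the 197 called differences of single members, 109 were called under every alternative that could be run, and of 8149 single-member values under alternatives 517 lost the call. Counts of called members follow, each after its value as reported. Leaving out 1 array gave 47 to 52 for late distal (52), 5 to 21 for early distal (16), 11 to 21 for late against early distal (20), 0 to 1 for late proximal (0), 3 to 18 for early proximal (14), 13 to 25 for the regions of untreated colon (17), 46 to 51 for those of late colon (50), 25 to 31 for the late response (28) and 0 for the early response (0). The planned filter on dim probe sets, a limit of 11.668 set by probe sets outside the authors' table, left 14 members and gave 12, 3, 6, 0, 0, 1, 13, 10 and 0 in that order; fewer genes were tested. Array weights gave 42 for early distal, 4 for late proximal, 30 for early proximal, 35 for untreated regions, 45 for the late and 5 for the early response. Fitting only the groups compared gave 9 for early distal and 0 for untreated regions. Untreated arrays 1 to 3 alone gave 9, 3 and 0 for early distal, early proximal and untreated regions, and arrays 4 to 6 alone 27 for early distal and 1 for late proximal. Without the libraries labelled untreated proximal 1 and untreated distal 3 the counts were 2 for late proximal, 22 for early proximal and 28 for untreated regions. Without arrays over a planned acinar limit, which left no late distal array, early distal gave 4 and late proximal 1, and without the 6 highest arrays, chosen after the data were seen, 3 and 1. Testing all probe sets gave 7 and the authors' deposited step-up p-values 8 for early proximal. Replicate numbers were not taken as pairs: deviations of same-numbered proximal and distal arrays correlated at -0.227 to 0.692, over 0.1 for 4 of 13 pairs, so whether some came from 1 mouse was not settled. The replicate block took 2 forms. Comparisons of treatment within a region had the replicate number as a fixed factor over all groups, which ties together mice that share only a number. In this form early proximal gave 4 (CYP1B1, CYP26B1, CYP39A1 and GSTT1) and early distal 11. Comparisons between regions had treatment state and number together as a random block (consensus correlation 0.185), and untreated regions gave 20. The cause of these differences was not tested.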
